A study of Mus musculus with 6 samples.

Results

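Interferon-stimulated genes are the transcripts that cells make in quantity once an interferon has bound its receptor, and 38 of them were followed here in regenerating mouse muscle. They were chosen as a named list of antiviral effectors, sensors and transcription factors, and all 38 had a row among the 16289 genes of the count table and passed the filter on low counts. By its label the tissue was the tibialis anterior, a muscle at the front of the lower leg, of male C57BL/6J mice that were 12 weeks old. Each muscle had received glycerol, an agent that destroys fibres and leaves fat as the tissue heals, and was taken 14 days later. The libraries formed 2 groups of 3 mice, glycerol injection with a control treatment (glycerol) and glycerol injection with melatonin, the hormone of the pineal gland (glycerol+melatonin). The sources used here do not give the dose, route or timing of melatonin or the nature of the control treatment, and uninjured muscle was not analysed here. Below, the 3 values without melatonin are glycerol replicates 1 to 3 and the 3 with it are glycerol+melatonin replicates 1 to 3. The labels name the tibialis anterior as the tissue while their extraction text names a back muscle. The fibre genes Ckm (creatine kinase) and Acta1 (skeletal actin) do not tell these muscles apart. They were at 12700 to 23300 and 24000 to 41200 CPM (counts scaled to the library total and its composition) in the 6 libraries.

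As background, type I interferons act through the receptor chains IFNAR1 and IFNAR2 and the kinases JAK1 and TYK2. The signal ends in a complex that holds STAT2 and IRF9 and binds the interferon-stimulated response element in promoters, whereas the response to interferon gamma runs mainly through the gamma-activated sequence. In injured muscle, endothelial cells, infiltrating leukocytes, stromal cells and fibres can all carry such transcripts. In whole muscle, more cells of a type and more RNA per cell cannot be told apart.

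The members lay mostly higher in the glycerol+melatonin libraries, but none passed the test over all genes. By edgeR's quasi-likelihood test 12 of 16259 genes had a Benjamini-Hochberg adjusted p under 0.05 (0.0738% of genes tested), and 0 of the 38 members were among them, the smallest adjusted p of a member being 0.103. At an unadjusted p under 0.05 there were 12 members higher (31.6%) and 0 lower, against 10.1% of all genes higher and 9.39% lower. The log2 fold change, glycerol+melatonin over glycerol, was above 0 for 30 of 38 members (78.9%) and for 51.7% of all genes, and its median was 0.32 over the members and 0.02 over all genes. DESeq2, run on the same counts, gave an adjusted p under 0.05 for 4 members, all higher (10.5%, against 2.21% of genes called higher and 2.8% lower): Bst2, Oas2, Ifitm3 and Isg15. limma-voom with sample weights gave 2, Bst2 and Oas2 (5.26%, against 0.615% of genes higher and 0.609% lower), and limma-voom without weights gave 0 (0.0185% of genes higher and 0.0554% lower).

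The 12 members with an unadjusted p under 0.05 were the tetherin gene Bst2, Ifitm3, the 3 oligoadenylate synthetase genes Oas1a, Oas2 and Oas3, Isg15, Ifit1, Irf7, Trim25, Ifi27, Ifi35 and Rtp4. For 11 of them the 3 glycerol+melatonin libraries all lay above the 3 glycerol libraries, and 28.9% of members were apart in this way against 13.6% of all genes. Ifi27 was the exception, with glycerol replicate 3 just above glycerol+melatonin replicate 1. Since these 12 were picked by p-value on the same libraries, their separation adds nothing to that p.

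**Figure D1:**
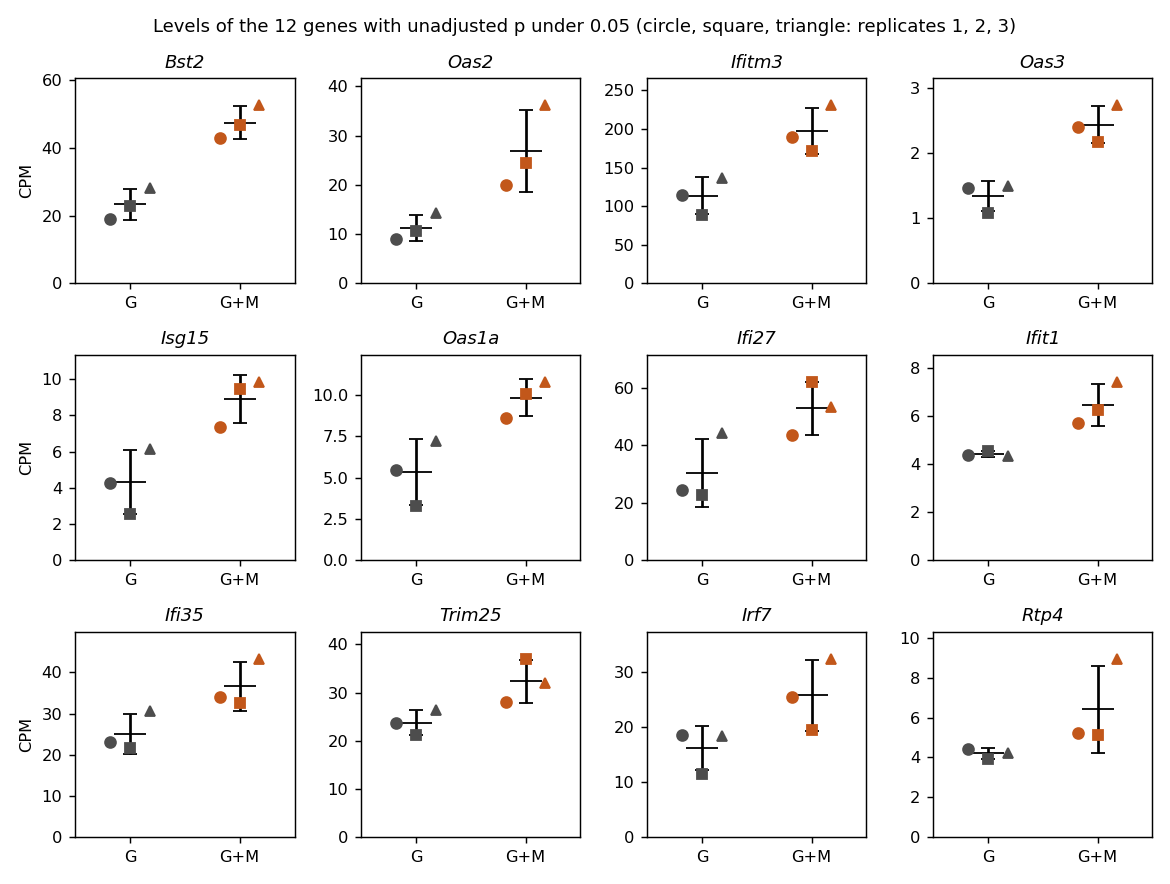
CPM (vertical axes, from 0) of the 12 interferon-stimulated genes with an unadjusted p under 0.05, in order of p, in glycerol (G, grey) and glycerol+melatonin (G+M, orange) libraries. Each symbol is 1 mouse, the long dash is the mean and the bar the SD (n = 3), and in every panel but Ifi27 the 3 orange symbols lie above the 3 grey ones.

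The promoters of the members were searched for 2 interferon response motifs. The core of the interferon-stimulated response element, GAAA, any 2 bases and GAAA again on either strand, was searched in 300 bases around each RefSeq start (250 before and 50 after, GRCm38.p6). Of 30 members found there, 16 held the core (53.3%), against 3.99% of 27025 genes, and 9 held the gamma-activated sequence TTCNNNGAA (30%, against 9.55%). The 2 motifs can overlap. Among the 12 members with an unadjusted p under 0.05, 9 were found there, all but Oas2, Ifi27 and Rtp4. Of these 9, 6 held the response element core (66.7%), and among the other members found there it was 10 of 21 (47.6%). The stretches that hold it are shown for 5 of these 6 and for Rsad2, lower in each glycerol+melatonin library, to set the motif beside both directions of difference. In Ifitm3, the remaining one of the 6, the core lies past the start of transcription and is not shown. Each is written 5′ to 3′ along the gene's strand with up to 30 bases on either side and the core in capitals.
Isg15, chr4:156200845-156200926, minus strand: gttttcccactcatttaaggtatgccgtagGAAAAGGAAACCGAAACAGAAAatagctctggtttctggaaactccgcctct
Bst2, chr8:71537557-71537632, minus strand: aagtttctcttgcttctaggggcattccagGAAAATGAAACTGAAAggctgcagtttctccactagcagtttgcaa
Oas1a, chr5:120907500-120907575, minus strand: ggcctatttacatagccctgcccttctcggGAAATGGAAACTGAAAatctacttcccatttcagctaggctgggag
Oas3, chr5:120777695-120777764, minus strand: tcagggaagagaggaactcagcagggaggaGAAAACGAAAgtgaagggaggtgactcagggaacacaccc
Ifit1, chr19:34640755-34640843, plus strand: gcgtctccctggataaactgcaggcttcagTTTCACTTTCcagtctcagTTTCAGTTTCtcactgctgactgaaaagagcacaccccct
Rsad2, chr12:26456533-26456602, minus strand: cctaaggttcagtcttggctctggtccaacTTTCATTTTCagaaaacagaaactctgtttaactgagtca

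In Isg15 the core matched at 3 overlapping positions and in Bst2, Oas1a, Ifit1 and Ifitm3 at 2, those of Bst2 and Oas1a overlapping. Ifih1, also lower in each glycerol+melatonin library, held 1 match past its start. Members higher and members lower in glycerol+melatonin both held the core, and a match describes letters in this window only. Irf7, Ifi35 and Trim25, at an unadjusted p under 0.05, had no match in the window. The 12 members at that p also had shorter transcripts, with a median length of 1872 bases, against 3299.5 bases in the other 26 members and 3118 bases over all genes tested. With transcript length and GC content corrected for, 11 members were higher at an unadjusted p under 0.05 (28.9%, against 9.14% of all genes), and the median was 0.39 over the members and 0.03 over all genes. Ifi35 and Rtp4 lost that p in this fit and Irf9 gained it. Besides Bst2, Ifitm3 and Ifi35 (below), the log2 fold change fell for Isg15 (1.04 to 0.78) and Ifi27 (0.80 to 0.58). It also fell for Oas1a (0.89 to 0.79) and Rtp4 (0.61 to 0.53). For Oas2 (1.26 to 1.35), Oas3 (0.86 to 0.93), Trim25 (0.45 to 0.59) and Ifit1 (0.55 to 0.60) it rose, and Irf7 stayed at 0.67.

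Among proteins that act at membranes, Bst2 encodes tetherin, which holds budding viral particles at the cell surface. Bst2 (ENSMUSG00000046718; GRCm38 chromosome 8, 71534255 to 71537456) measured 19.1, 22.8 and 28.2 CPM without melatonin and 43.1, 46.7 and 52.7 CPM with it. No glycerol library reached the lowest glycerol+melatonin library, and the means were 23.4 ± 4.60 and 47.5 ± 4.80 CPM (SD, n = 3 each). The log2 fold change was 1.02 ± 0.18 (SE; edgeR adjusted p = 0.103, the smallest of the members), and 0.72 after a correction for transcript length and GC content. Across the 6 fits that each left out 1 library it stayed between 0.90 and 1.18.

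The Ifitm genes encode small membrane proteins that hinder fusion of viruses with endosomes, and they lie in a cluster on chromosome 7. Ifitm3 (ENSMUSG00000025492; 141009586 to 141010770) had the highest level per length of all members, at a mean of 229 CPM per kilobase of its longest transcript. It measured 115, 88.4 and 137 CPM without melatonin and 189, 172 and 231 CPM with it. The groups did not overlap, and the log2 fold change was 0.80 ± 0.21 (edgeR adjusted p = 0.144), or 0.52 once transcript length and GC content were corrected for. Ifitm2, second by level per length at 137 CPM per kilobase, measured 86.0, 45.9 and 88.8 CPM without melatonin and 87.9, 95.1 and 133 CPM with it. Here glycerol replicate 2 was low and glycerol+melatonin replicate 3 high while the other 4 libraries were close together, and the log2 fold change of 0.52 ± 0.28 (edgeR adjusted p = 0.332) went to 0.07 without those 2 libraries and to 0.21 after the length and GC correction. Ifitm1 was far less abundant per length, at 2.48 CPM per kilobase, with a log2 fold change of 0.78 ± 0.42 and overlapping groups. Ifitm2 and Ifitm3 are similar in sequence, and the sources used here do not say how reads that match several copies were counted.

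Oligoadenylate synthetases make short adenylate chains that activate the ribonuclease RNase L, and 3 members of the family sit in 1 cluster on chromosome 5. Oas2 (ENSMUSG00000032690; 120730333 to 120749853) had the highest log2 fold change of the 38 members. It measured 8.94, 10.6 and 14.2 CPM without melatonin and 20.0, 24.5 and 36.2 CPM with it, so the lowest library with melatonin was above the highest without it. Its log2 fold change was 1.26 ± 0.26 (edgeR adjusted p = 0.125), with a range of 0.99 to 1.46 when each library was left out in turn. Oas3 (120753098 to 120777661), the least abundant member per length at 0.401 CPM per kilobase, measured 1.46, 1.08 and 1.49 CPM without melatonin and 2.40, 2.18 and 2.74 CPM with it. Its log2 fold change was 0.86 ± 0.25 (edgeR adjusted p = 0.164). Oas1a (120896256 to 120907521) measured 5.48, 3.25 and 7.25 CPM without melatonin and 8.61, 10.1 and 10.8 CPM with it, again without overlap (0.89 ± 0.28, edgeR adjusted p = 0.181). Its near copy in the same cluster, Oas1g, was at 1.11 ± 0.33 (edgeR adjusted p = 0.168), and the sum of both copies gave an edgeR adjusted p of 0.169 for Oas1a.

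The 2 synthetase-like genes, Oasl1 and Oasl2, lie elsewhere on chromosome 5 (114923240 to 114937915 and 114896936 to 114912234) and did not share this pattern of values. Oasl2 measured 36.6, 18.4 and 24.3 CPM without melatonin and 29.4, 23.3 and 43.1 CPM with it (0.27 ± 0.30, edgeR adjusted p = 0.637). Oasl1, which dampens translation of Irf7, was at 0.15 ± 0.40. For both the highest library was glycerol+melatonin replicate 3 and the lowest glycerol replicate 2, and without these 2 libraries the log2 fold changes were -0.20 and -0.58.

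Isg15 encodes a ubiquitin-like protein that is joined to other proteins during the interferon response, and Usp18 encodes the protease that takes it off and also blocks the receptor. Isg15 (ENSMUSG00000035692; chromosome 4, 156199424 to 156200818) measured 4.27, 2.56 and 6.12 CPM without melatonin and 7.38, 9.45 and 9.85 CPM with it. The groups did not overlap, with means of 4.32 ± 1.78 and 8.89 ± 1.33 CPM and a fold change of 1.04 ± 0.31 on the log2 scale (edgeR adjusted p = 0.167). Usp18 measured 6.89, 3.82 and 6.88 CPM without melatonin and 6.81, 6.03 and 8.81 CPM with it (0.30 ± 0.27), so that only the same pair of libraries stood outside the common range.

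IFIT1 binds viral RNA ends, and the genes of the IFIT family form a cluster on chromosome 19. Ifit1 (34640871 to 34650009) measured 4.40, 4.56 and 4.34 CPM without melatonin (178, 198 and 177 counts), the narrowest spread of the 12, and 5.73, 6.27 and 7.43 CPM with it. The log2 fold change was 0.55 ± 0.19 (edgeR adjusted p = 0.188). Ifit3 measured 13, 13 and 20.3 CPM without melatonin and 18.2, 14.7 and 25.4 CPM with it (0.33 ± 0.26), and its near copy Ifit3b was at -0.04 ± 0.27. The sum of both copies was lower than Ifit3 alone, at 0.24 ± 0.25 (edgeR adjusted p = 0.616).

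Ifit2, singled out after its values were seen, had deposited counts of 257, 339 and 348 in glycerol and of 299, 18 and 316 in glycerol+melatonin. The count of 18 in glycerol+melatonin replicate 2 was the lowest of any member in any library, while Ifit1 and Ifit3 in that library had 340 and 794 counts. The log2 fold change of Ifit2 was -0.71 ± 0.77 in all 6 libraries and -0.16 without that library. Isolated low counts of this kind, under 15% of the lowest of the other 5 libraries where those held at least 100 counts, were found for 3 to 9 genes per library, with 9 in glycerol+melatonin replicate 2, and Ifit2 was the single member among them. No annotated gene shares exon bases with Ifit2, and the origin of the low count was not tested.

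**Figure D2:**
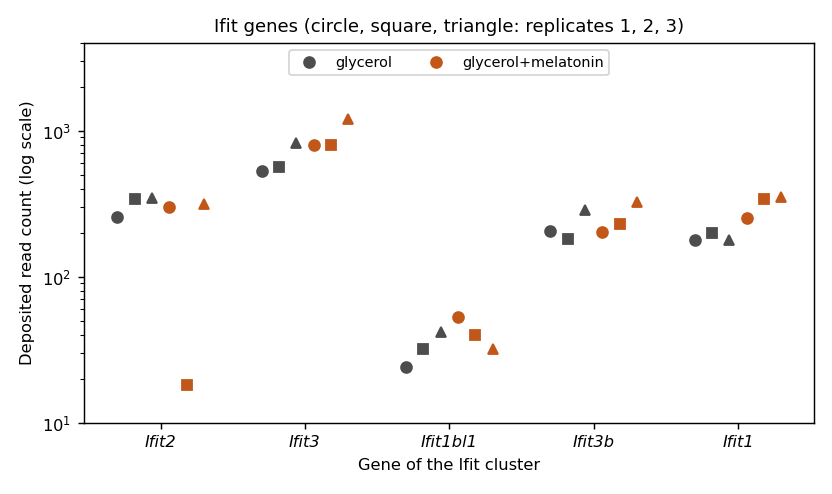
Deposited read counts (log axis) of 5 Ifit cluster genes in the 6 libraries, glycerol in grey and glycerol+melatonin in orange, with circle, square and triangle for replicates 1, 2 and 3. The Ifit2 count of 18 in glycerol+melatonin replicate 2 stands far below the other 5 Ifit2 counts of 257 to 348, while the other 4 genes show no such gap.

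Of the transcription factors, Irf7, which amplifies interferon production and is itself interferon-induced, measured 18.5, 11.5 and 18.4 CPM without melatonin and 25.4, 19.4 and 32.3 CPM with it. Its log2 fold change was 0.67 ± 0.25 (edgeR adjusted p = 0.207), and 0.29 without glycerol replicate 2 and glycerol+melatonin replicate 3. Irf7 (chromosome 7, 141262706 to 141266481) shares 45 exon bases with Phrf1 on the other strand. Irf1, which answers interferon gamma and inflammatory cytokines, followed another order of libraries, with 10.5, 18.8 and 13.7 CPM without melatonin and 12.5, 27.9 and 20.5 CPM with it. Here glycerol+melatonin replicate 2 was the highest and glycerol replicate 1 the lowest (0.50 ± 0.31). Of the type I response complex, Stat2 was at 0.30 ± 0.21 and Irf9 at 0.29 ± 0.18.

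Among sensors, Trim25, the ubiquitin ligase that activates the RNA sensor RIG-I, measured 23.6, 21.2 and 26.4 CPM without melatonin and 28.1, 37.0 and 31.9 CPM with it, without overlap (0.45 ± 0.17, edgeR adjusted p = 0.206). The nucleic acid sensor gene Zbp1 (0.61 ± 0.34) and Dhx58 (0.46 ± 0.28), which encodes a regulator of RIG-I and MDA5, overlapped between groups. Ddx58, the gene of RIG-I itself, was at 0.09 ± 0.17. Ifih1, the gene of MDA5, was lower in each glycerol+melatonin library, at 7.26, 7.90 and 8.62 CPM against 10.3, 9.4 and 10.7 CPM (-0.36 ± 0.16, edgeR adjusted p = 0.275).

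Ifih1 was 1 of 4 members whose glycerol+melatonin libraries all lay below the glycerol libraries. The others were Rsad2, the gene of viperin, which makes a chain-terminating nucleotide, its genomic neighbour Cmpk2, a mitochondrial nucleotide kinase, and Eif2ak2, the gene of the RNA-dependent kinase PKR. Rsad2 measured 17.4, 16.3 and 17.9 CPM without melatonin and 13.1, 12.6 and 15.5 CPM with it (-0.33 ± 0.16, edgeR adjusted p = 0.288). Cmpk2 was at -0.34 ± 0.17, its groups apart by 9.65 against 9.59 CPM in the nearest libraries, and Eif2ak2 at -0.23 ± 0.17. These 4 were 10.5% of the members, against 12.5% of all genes apart in the lower direction, so their number is near the background. With libraries scaled by total count alone, which moved the median of all genes to 0.23, the log2 fold changes were -0.11 for Rsad2, -0.14 for Ifih1, -0.14 for Cmpk2 and -0.01 for Eif2ak2. With transcript length and GC content corrected for, they were -0.18 for Rsad2, -0.17 for Ifih1, -0.25 for Cmpk2 and -0.07 for Eif2ak2. The remaining enzyme, the dNTP hydrolase Samhd1, was at 0.02 ± 0.14.

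The guanylate-binding proteins, GTPases that attack vacuoles of intracellular pathogens, showed no common direction. Gbp7 measured 15.7, 17.6 and 12.9 CPM without melatonin and 11.9, 14.2 and 10.8 CPM with it (-0.32 ± 0.19, edgeR adjusted p = 0.362), and Gbp3 and Gbp2 were at 0.27 ± 0.16 and 0.05 ± 0.18. Parp14, a mono-ADP-ribosyltransferase, measured 27.7, 20.9 and 28.6 CPM without melatonin and 26.7, 27.6 and 37.7 CPM with it (0.25 ± 0.20, edgeR adjusted p = 0.491), and Parp9 was at 0.28 ± 0.24. Parp9 shares 458 exon bases with Dtx3l on the other strand, which was at -0.40 ± 0.17 (edgeR adjusted p = 0.241). Both Parp genes had glycerol replicate 2 as the lowest and glycerol+melatonin replicate 3 as the highest library.

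In the remaining group, Ifi27, which encodes a small mitochondrial protein, measured 24.4, 22.7 and 44.2 CPM without melatonin and 43.5, 62.1 and 53.3 CPM with it (0.80 ± 0.27, edgeR adjusted p = 0.188). Ifi35 measured 23.0, 21.6 and 30.7 CPM without melatonin and 34.0, 32.5 and 43.3 CPM with it (0.54 ± 0.19, edgeR adjusted p = 0.196), and 0.34 after the correction for transcript length and GC content. Rtp4 measured 4.45, 3.94 and 4.21 CPM without melatonin and 5.21, 5.11 and 8.96 CPM with it (0.61 ± 0.26, edgeR adjusted p = 0.243). The value of 8.96 CPM in glycerol+melatonin replicate 3 set much of that difference, which was 0.30 without this library, and Rtp4 shares 296 exon bases with the gene model Gm45338 on the same strand. The apoptosis-related gene Xaf1 was at 0.43 ± 0.21 with overlapping groups, and Ifi44 (-0.03 ± 0.32) and Lgals3bp (-0.16 ± 0.19), whose sign turned when libraries were scaled by total count alone, were near 0.

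**Figure D3:**
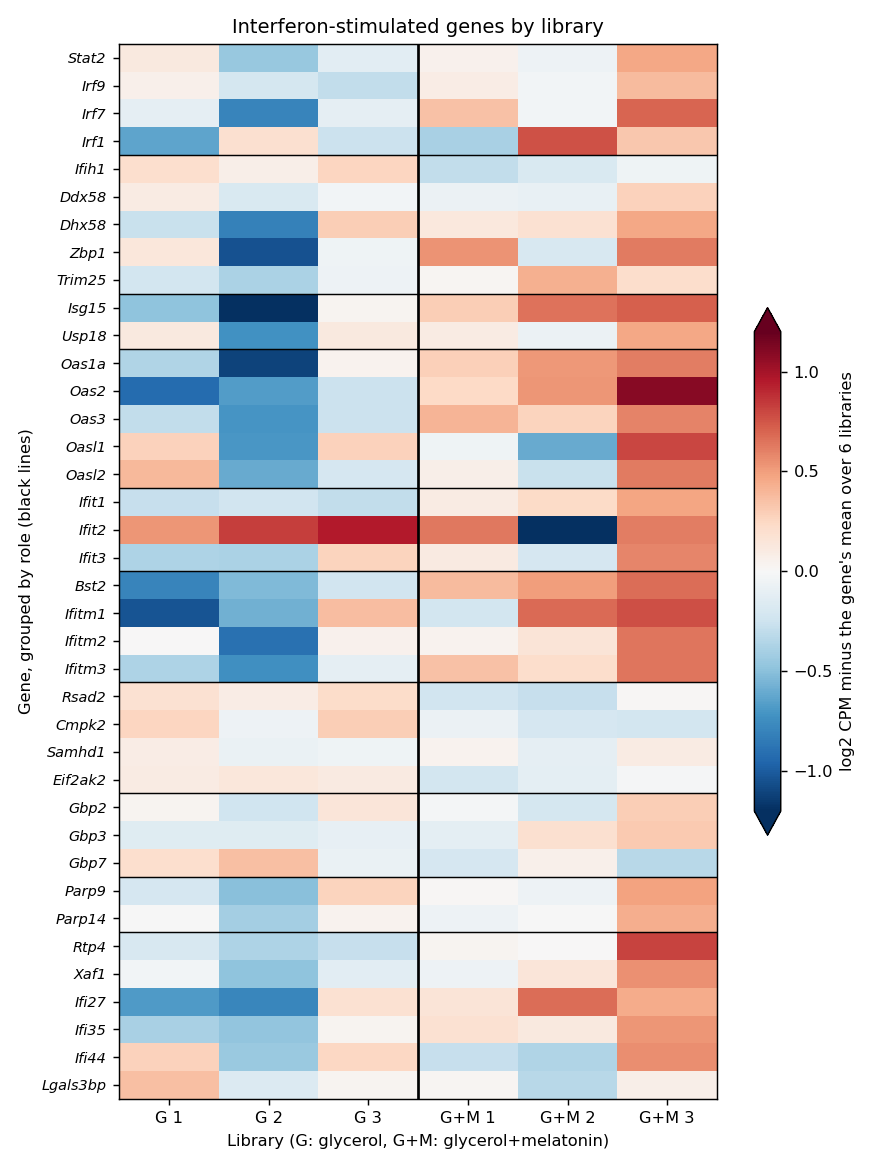
Log2 CPM of each of the 38 interferon-stimulated genes (rows, grouped by role between black lines) in the 6 libraries (columns, G glycerol and G+M glycerol+melatonin), minus the gene's own mean over the libraries; colours saturate at the ends of the scale. The column of glycerol replicate 2 is mostly blue and that of glycerol+melatonin replicate 3 mostly red, while Ifit2 is dark blue in glycerol+melatonin replicate 2.

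Over the members as a whole, 2 libraries lay at the extremes. The mean over the members of log2 CPM, centred on each gene's mean, was -0.114, -0.405 and 0.035 in glycerol replicates 1 to 3 and 0.062, -0.018 and 0.440 in glycerol+melatonin replicates 1 to 3. Glycerol replicate 3 and glycerol+melatonin replicates 1 and 2 were thus close to each other, and the groups overlapped. Leaving out Ifit2, as a choice made after its values were seen, moved glycerol+melatonin replicate 2 to 0.078 and removed the overlap. Glycerol+melatonin replicate 3 was the highest of the 6 libraries for 28 of 38 members (73.7%, against 24.6% of all genes). Glycerol replicate 2 was the lowest of the 6 for 24 members (63.2%, against 17.8% of all genes). For 22 members both held, and the share of all genes with both was not counted.

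Without glycerol+melatonin replicate 3 the median log2 fold change of the members was 0.18, with 25 of 38 above 0 (50.5% of all genes), and 9 members were higher and 2 lower at an unadjusted p under 0.05 (7.84% and 7.26% of all genes). Without glycerol replicate 2 the median was 0.24, with 27 of 38 above 0 (51.2% of all genes), and 7 members were higher and 0 lower at that p (5.58% and 4.85% of all genes). Both libraries are the extremes of their groups for these same members, so leaving them out must shrink the difference. The median was then 0.10, with 21 of 38 members above 0 (55.3%, against 50.4% of all genes). In that fit of 4 libraries 4 members were still higher at an unadjusted p under 0.05 (10.5%, against 4.7%), and 1 was lower, Rsad2 (4.21% of all genes). The 4 were Bst2 (0.93), Oas2 (0.95), Isg15 (0.70) and Ifitm3 (0.52), none with an adjusted p under 0.05. Of the 12 members with an unadjusted p under 0.05 in all libraries, 7 kept it whichever single library was left out: Bst2, Oas2, Ifitm3, Oas3, Isg15, Oas1a and Ifit1. The share of all genes that kept it was not counted. As the 12 were picked by p on these libraries, the 7 describe the members only.

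**Figure D4:**
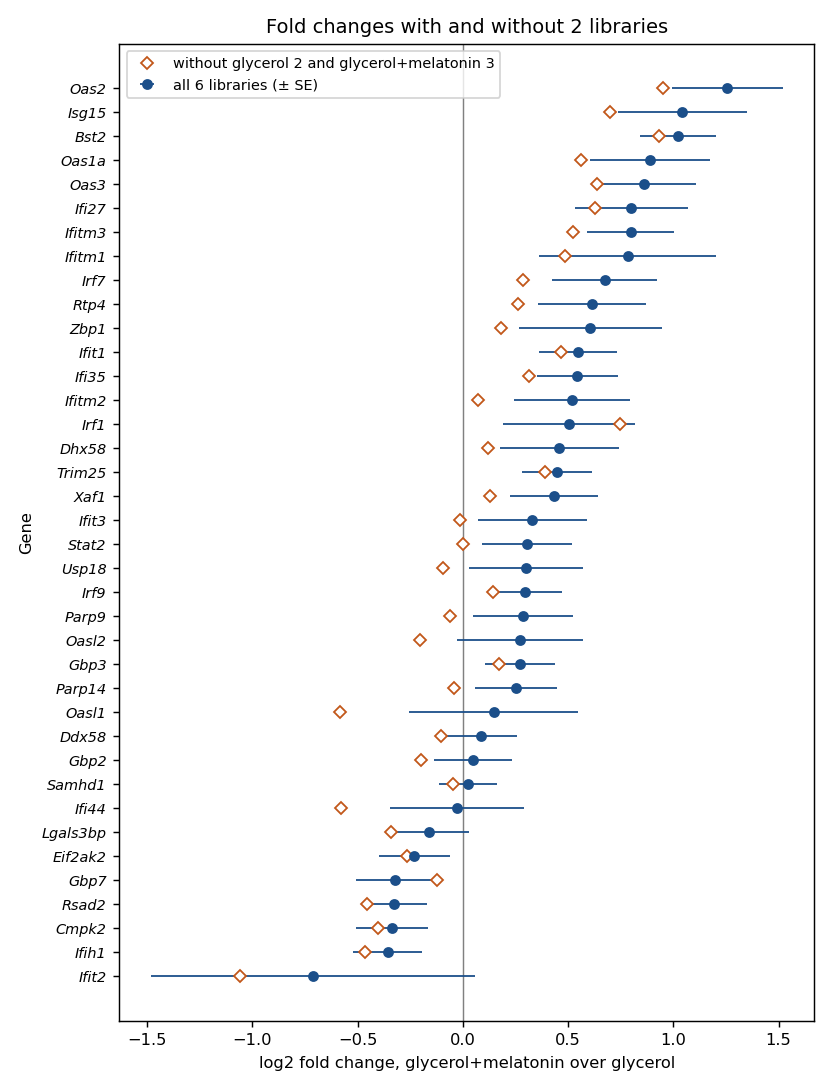
Log2 fold changes (glycerol+melatonin over glycerol, horizontal axis) of the 38 interferon-stimulated genes from all 6 libraries (blue, bars are SE) and without glycerol replicate 2 and glycerol+melatonin replicate 3 (orange diamonds). Most diamonds lie to the left of the dots, those of Oas2, Bst2, Irf1 and Isg15 lie at 0.70 or above, and 9 genes with a dot above 0 have a diamond below 0.

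Markers of other cells also differed between these libraries. In glycerol+melatonin replicate 3 the 6 neutrophil markers with a row summed to 32.7 CPM, against 5.11 to 9.17 CPM in the other 5 libraries, and S100a9, among the most abundant neutrophil transcripts, was at 7.23 CPM there and at 0 to 1.64 CPM elsewhere. The granule gene Ngp was at 0 in glycerol replicates 1 and 2 and in glycerol+melatonin replicate 1, and 8 of the 14 neutrophil genes listed had no row. The 10 endothelial markers summed to 1750 CPM in glycerol+melatonin replicate 3 and to 1080 to 1270 CPM in the others, lowest in glycerol replicate 2. Of the 10, 6 were above 0 and 4 below (51.7% of all genes above 0). Their median of 0.15 went to -0.11 without glycerol replicate 2 and glycerol+melatonin replicate 3. In all libraries 3 of them (Cldn5, Egfl7 and Esam) had an unadjusted p under 0.05, all higher (10.1% of all genes). Macrophage markers (12 genes) summed to 630 CPM in glycerol+melatonin replicate 3, within the range of the others. The 6 monocyte markers summed to 57.9 CPM there, also within that range, but their mean centred log2 CPM was highest there (0.195) and lowest in glycerol replicate 2 (-0.257), as for the members. The 8 muscle stem cell and new fibre markers had the same lowest and highest libraries, with mean centred levels of -0.536 and 0.378. Of the 8, 7 were above 0 (51.7% of all genes), and their median of 0.39 went to 0.13 without those 2 libraries. The muscle fibre markers were lowest in glycerol+melatonin replicate 3, at 87100 CPM, as were the red blood cell markers, at 101 CPM against 154 to 376 CPM elsewhere. The 10 fibro-adipogenic progenitor markers summed to 6890, 7580 and 7320 CPM without melatonin and to 4990, 6080 and 5410 CPM with it. Their mean centred levels overlapped, at -0.087, 0.235 and 0.320 without melatonin and -0.216, 0.027 and -0.279 with it. Of the 10, 4 were above 0 and 6 below (51.7% of all genes above 0). At an unadjusted p under 0.05, 3 of them (Pdgfra, Dcn and Fbn1) were lower (9.39% of all genes). The part of these cells in the levels of the interferon-stimulated genes was not tested.

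**Figure D5:**
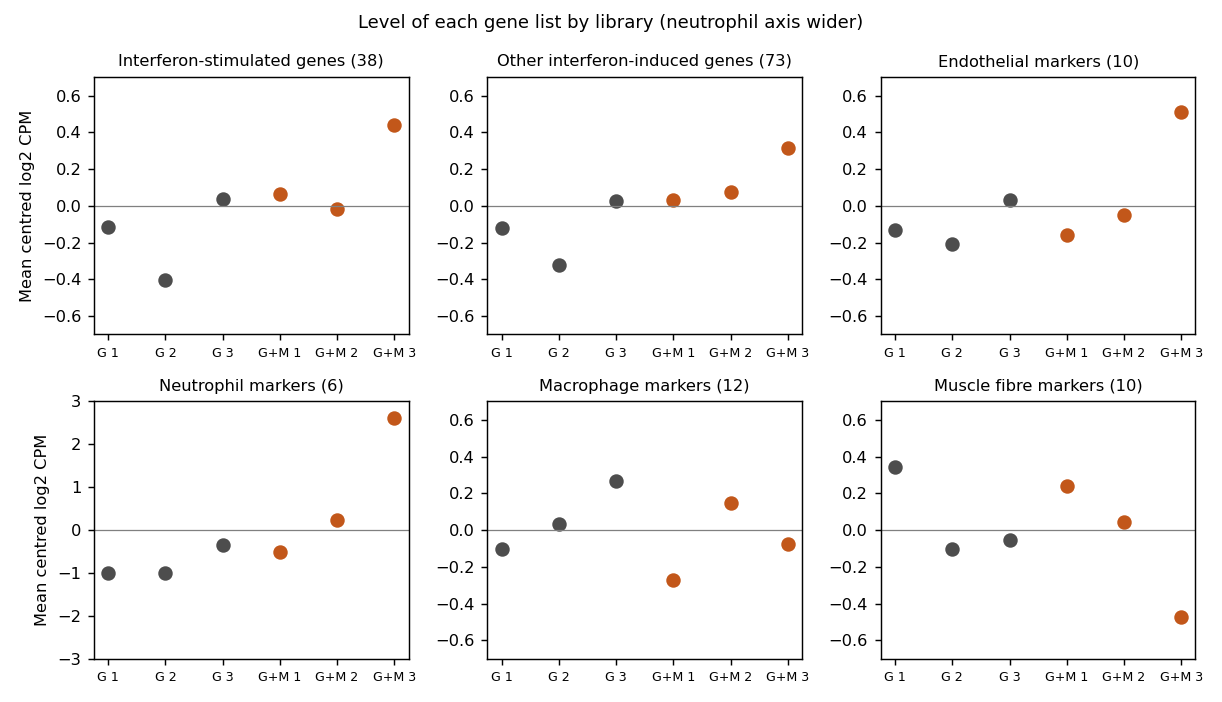
Mean centred log2 CPM (vertical axes; the neutrophil axis is wider) of 6 gene lists in each library, glycerol in grey and glycerol+melatonin in orange. The 38 interferon-stimulated genes, the 73 other interferon-induced genes, the endothelial and the neutrophil markers are each highest in glycerol+melatonin replicate 3, whereas the macrophage markers are not.

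No gene of the lists around the members passed edgeR's adjusted p. None of 11 interferon genes listed had a row, so their transcripts were not analysed here. The receptor genes Ifnar1 (0.21 ± 0.15) and Ifnar2 (0.14 ± 0.20) did not pass. Of 10 receptor, kinase and STAT genes, 5 were above 0 and 5 below (51.7% of all genes above 0). At an unadjusted p under 0.05, 0 were higher and 3 lower (10.1% and 9.39% of all genes): the kinases Jak2 (-0.51 ± 0.17) and Jak1 (-0.37 ± 0.15) and the interferon gamma receptor chain Ifngr2 (-0.53 ± 0.18), with edgeR adjusted p from 0.185 to 0.227. Ifngr2 measured 84.7, 89.4 and 70.2 CPM without melatonin and 68.4, 50.9 and 49.8 CPM with it.

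Of the 7 negative regulators, Socs3, the feedback inhibitor induced by cytokines, was the 1 with an unadjusted p under 0.05, and was higher (10.1% of all genes). It measured 8.80, 10.1 and 10.5 CPM without melatonin and 12.8, 13.3 and 15.6 CPM with it (0.51 ± 0.17, edgeR adjusted p = 0.185). Of 16 genes of sensing and induction, 5 were above 0 and 11 below (median -0.27; 51.7% of all genes above 0). At that p 3 were higher (Irf3, Myd88 and Ikbke) and 2 lower (Tlr9 and Irf5), against 10.1% and 9.39% of all genes. Irf3, the factor that starts interferon transcription, was at 0.54 ± 0.19, and the DNA receptor gene Tlr9 at -1.11 ± 0.37 (1.28, 1.13 and 0.98 against 0.777, 0.351 and 0.447 CPM). The interferon-gamma-induced list (5 genes) had 0 members at that p (10.1% of all genes higher and 9.39% lower), with the chemokine genes Cxcl9 and Cxcl10 at 0.13 ± 0.19 and 0.17 ± 0.28.

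A second list held 73 interferon-induced genes outside the 38, among them Oas1g and Ifit3b, near copies of members. It too was chosen with earlier results of these data known and was measured in the same 6 libraries. Its shares are therefore not independent of those of the members. Of these, 58 were above 0 (79.5%, against 51.7% of all genes), and 16 were higher (21.9%, against 10.1%) and 0 lower (against 9.39%) at an unadjusted p under 0.05. By edgeR 0 had an adjusted p under 0.05, and the median was 0.22. Glycerol+melatonin replicate 3 was the highest library for 43 of them (58.9%, against 24.6% of all genes) and glycerol replicate 2 the lowest for 35 (47.9%, against 17.8%). Without both libraries the median was 0.10, with 44 of the 73 above 0 (50.4% of all genes). The 3 with the smallest p were Ifi27l2a (0.91 ± 0.24), Ms4a4c (1.2 ± 0.33) and the guanylate-binding protein gene Gbp10 (0.96 ± 0.27), with edgeR adjusted p from 0.150 to 0.159. Gbp10 followed another order of libraries than most members, with 29.5, 36.5 and 33.6 CPM without melatonin and 79.6, 76.2 and 38 CPM with it, where replicate 3 was the lowest of its group. The dynamin-like antiviral gene Mx1 was at 0.27 ± 0.29.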

How the data were processed

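RNA-seq reads per gene were measured in 6 muscles, 3 per group. The authors deposited 1 table of raw counts per Ensembl gene. The submitters' processing notes list, with build mm10, the aligner HISAT2 2.0, StringTie 1.3.3b and bedtools 2.26.0, and for read checks and trimming FastQC 0.11.2 and Trimmomatic 0.36, and DESeq2 1.12.4; the counting tool, annotation and strand setting were not stated. The smallest total of a gene is 28 counts. Library totals ran from 39310361 to 48879045 counts. Over all genes together, counting error is small beside the spread between mice. For members with few counts it need not be, as for Ifit1 with 178, 198 and 177 counts in glycerol. The series' text calls the mice of a group biological replicates, and no pair of replicates agreed within counting error (chi-square over its degrees of freedom, 65.8 to 180.8).

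Symbols, positions and transcript lengths came from GENCODE M21 (GRCm38, the assembly of mm10), and promoters from RefSeq. Counts were tested with edgeR 4.0.16 (R 4.3.3; quasi-likelihood, TMM factors, filterByExpr, no covariate; 16259 genes), with Benjamini-Hochberg adjustment over all genes. The SE is the log2 fold change divided by the square root of F. Centred levels used a prior count of 2. DESeq2 1.42.0 and limma 3.58.1 were alternatives, and the scripts were tested on simulated counts.

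The members and lists were chosen with earlier results of these data known. Values per library are given for members with an unadjusted p under 0.05, the 3 highest per kilobase, 1 further member per role group, up to 3 genes per pathway list and a few fixed genes. Others (Ifit2, Ifit3, Ifih1, Irf1, Oasl2 and Usp18) were chosen after their values were seen. The 4 members lower without overlap were also set apart after their values were seen, though Rsad2 was the further member of its role group.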

Additional observations from a re-analysis of the deposited data

How the results depend on the processing

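The 30 members above 0 stayed within 25 to 31 of 38 when each library was left out in turn, 27 to 32 under the other settings on 6 libraries, and 21 with glycerol replicate 2 and glycerol+melatonin replicate 3 both left out. The 12 members higher at an unadjusted p under 0.05 (10.1% of all genes) became 7 to 15 with each library left out (5.58% to 12.3% of all genes), 4 with both left out (4.7%), 5 at an unadjusted p under 0.01 (2.95%) and 15 with a replicate block (8.99%). Same-numbered mice did not deviate together (r = -0.0101, -0.0107 and -0.0492), so the numbers were not used as pairs. The median of the members ran from 0.18 to 0.47 with single libraries left out and was 0.52 with library size alone, where the median of all genes was 0.23.

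Genes with an adjusted p under 0.05 numbered 12, against 752 by DESeq2, 199 by limma-voom with sample weights, 0 with the replicate block (2991 genes at an unadjusted p under 0.05), 59 at an adjusted p under 0.10, 0 at 0.01, and 6 to 27 with each library left out. No gene passed at the stricter threshold or with the block by edgeR; the cause was not tested.

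Some log2 fold changes turned sign, also of members near the members' median of 0.32 such as Ifit3 (0.33), Usp18 (0.30), Parp9 (0.28), Oasl2 (0.27) and Parp14 (0.25). With both libraries left out the values were Ddx58 -0.10, Usp18 -0.095, Oasl1 -0.58, Oasl2 -0.20, Ifit3 -0.014, Samhd1 -0.0455, Gbp2 -0.20, Parp9 -0.0625 and Parp14 -0.044. By limma-voom with sample weights Oasl1 was at -0.12, Samhd1 at -0.028 and Gbp2 at -0.02. Ifi44 was at 0.19 and Lgals3bp at 0.052 with library size alone, and Ifi44 at 0.011 with upper quartile factors and 0.14 with the length and GC correction. With single libraries left out, Ddx58 ranged from -0.036 to 0.16, Oasl1 from -0.32 to 0.42, Oasl2 from -0.0005 to 0.58, Samhd1 from -0.016 to 0.0805, Gbp2 from -0.10 to 0.16 and Ifi44 from -0.38 to 0.14. None of these had an adjusted p under 0.05 in any setting.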

Other observations

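Outside the interferon-stimulated genes, isolated low counts like that of Ifit2 were found in every library. The transcription factor gene Adnp had 8 counts in glycerol+melatonin replicate 2 and 1405 to 1765 in the other 5 libraries. The ubiquitin ligase gene Rlim had 6 counts in glycerol+melatonin replicate 3 and 904 to 1528 in the others, and Gemin4 had 1 count in glycerol replicate 3 and 220 to 341 in the others. These genes were chosen after their values were seen.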
